A study of Mus musculus with 6 samples.

Results

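Purine nucleotides, the building blocks of RNA and DNA and the scaffold of ATP and GTP, are assembled in the cytosol on a ribose phosphate by the enzymes described here. The 10 genes are Ppat, Gart, Pfas, Paics, Adsl and Atic of the chain that ends at inosine monophosphate (IMP), Impdh1, Impdh2 and Gmps of the branch that turns IMP into GMP, and Hprt, which rebuilds IMP and GMP from the free bases. These enzymes were chosen as a set with earlier results of these data known. Their probes were taken by gene name alone: every non-control probe whose gene name in the array files was one of the 10. This gave 14 of 55681 probes, and 10 of the 19589 features (genes or unnamed transcripts) that were tested. All 14 probes were well above background on all 6 arrays, so the filter on dim probes removed no member.

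Cultured macrophages derived from C57BL/6 mouse bone marrow were exposed to 100 µM ADP for 6 h (3 samples) or given a control treatment for 6 h (3 samples). Both groups had first been grown out with medium conditioned by L929 cells, which secrete M-CSF, the growth factor that drives macrophage differentiation. The cells of each experiment came from another donor, per the submitters, and the age and sex of the mice and the content of the control treatment are not given in the sources used here. RNA of each sample was labelled with a single dye and read on its own mouse array, so the number of arrays limits the precision. Transcripts of a bulk culture were measured, so fewer cells of a type and less RNA per cell cannot be told apart. ADP is itself a purine nucleotide that macrophages sense through P2Y receptors on their surface.

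De novo purine synthesis starts from phosphoribosyl pyrophosphate (PRPP). PPAT commits PRPP to the pathway and is inhibited by the purine nucleotides that the pathway makes. The next steps build the ring from glycine, glutamine, aspartate, carbon dioxide and formyl groups carried by folate, and ADSL and ATIC finish it. IMP then goes to AMP or, through IMP dehydrogenase and GMP synthetase, to GMP, while the salvage enzyme HPRT spends PRPP to recover hypoxanthine and guanine.

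The arrays lay on 2 slides. Slide 1 held ADP 1 with controls 1 and 2, and slide 2 held ADP 2 and 3 with control 3. Slides separated on the first principal component (44.9% of the variance) and treatments on the second (31.2%). Differences within each slide and with the slide as a block are therefore given beside those over all arrays. Per array, 50.3% to 51.9% of the 59305 spots that were not controls exceeded background clearly, 0 were saturated, and 75th percentiles ran from 455 to 549. All 9 macrophage markers examined were well above background on all 6 arrays, with a summed level of 10.47 to 10.95 with ADP and 10.25 to 10.72 in controls (log2 of the summed signal relative to the 75th percentile). Within that list Cd14 read 8.30, 8.07 and 8.42 with ADP against 7.50, 7.74 and 7.19 in controls, and Mertk 2.17, 2.51 and 2.12 with ADP against 2.89, 2.59 and 3.15 in controls, without overlap in opposite directions. Of the B cell markers, Cd79b read 2.23, 2.35 and 2.32 with ADP and 2.60, 2.41 and 2.97 in controls, while Ms4a1 did not clearly exceed background on any array. Cd79a went the other way, with a difference of 0.40 (ADP minus control) between overlapping groups. It was dim and well above background on 5 arrays. Summed neutrophil markers read 4.70 to 4.99 with ADP and 4.49 to 4.61 in controls, mostly from S100a8, with Ngp not well above background on any array. T cell markers (1.54 to 2.23 with ADP, 1.46 to 2.08 in controls), fibroblast markers (3.70 to 3.84 and 3.63 to 3.77), erythroid markers (-3.58 to -3.09 and -4.04 to -2.98) and dendritic cell markers (5.20 to 7.31 and 5.21 to 7.13) overlapped between the groups. The dendritic cell sum came mostly from Siglech and followed the slide, while Ccr7 of that list read -1.58, -1.70 and -1.47 with ADP against -2.49, -1.93 and -3.35 in controls, without overlap. Flt3 of the same list, well above background on all 6 arrays, differed by -0.15 between overlapping groups. Cd3d, Cd3g and Cd8a of the T cell list, 4 of 5 erythroid markers, Lum of the fibroblast list and Xcr1 of the dendritic cell list were not well above background on any array. Cd3e, Cd4 and Lck of the T cell list were well above background on all 6 arrays. The part of these markers in the values below was not tested.

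Sequences are shown for the members whose readings or promoters the account returns to. The probe is the stretch of transcript that an array measures, and those of Ppat (mm9, chr5:77347115-77347174, minus strand) and Gart (mm9, chr16:91624630-91624689, minus strand), the members with the largest differences, were as follows, 5′ to 3′. Each has 1 reading frame without a stop.
Ppat probe: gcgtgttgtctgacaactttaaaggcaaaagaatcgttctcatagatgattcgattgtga
Gart probe: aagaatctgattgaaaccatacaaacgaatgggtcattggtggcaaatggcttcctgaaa

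Promoter windows from RefSeq (GRCm38.p6, 250 bases before and 50 after the annotated start) were found for 9 of the 10 members, Pfas being the other. Of these, the 250 bases before the start are printed on the gene's strand for 4 genes, with the E-box letters CACGTG, the palindrome read by MYC with MAX and by related factors, in capitals for Atic (chr1:71556906-71557155, plus strand) and Impdh2 (chr9:108560186-108560435, plus strand). The GC box letters GGGCGG, read by SP-family factors, are in capitals for Gart (chr16:91646973-91647222, minus strand) and Hprt (chrX:52987828-52988077, plus strand). Gart and Hprt are those of the 4 genes that read lower with ADP on all arrays, and Atic and Impdh2 are E-box members whose groups overlapped. A further GGGCGG of Hprt crosses the start and is not in capitals. GGGCGG is also present in the printed Atic and Impdh2 stretches, where it is left in small letters. Its presence therefore does not set Gart and Hprt apart from Atic and Impdh2.
Atic: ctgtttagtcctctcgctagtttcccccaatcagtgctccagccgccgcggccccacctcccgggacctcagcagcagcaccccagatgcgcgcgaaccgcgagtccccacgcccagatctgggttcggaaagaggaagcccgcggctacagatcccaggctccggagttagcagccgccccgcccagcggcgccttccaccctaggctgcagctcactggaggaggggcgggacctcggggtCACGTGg
Impdh2: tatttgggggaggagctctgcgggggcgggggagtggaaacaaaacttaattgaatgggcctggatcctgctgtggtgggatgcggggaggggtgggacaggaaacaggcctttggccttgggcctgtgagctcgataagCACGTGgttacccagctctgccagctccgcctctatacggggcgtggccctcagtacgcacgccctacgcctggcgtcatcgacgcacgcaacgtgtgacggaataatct
Gart: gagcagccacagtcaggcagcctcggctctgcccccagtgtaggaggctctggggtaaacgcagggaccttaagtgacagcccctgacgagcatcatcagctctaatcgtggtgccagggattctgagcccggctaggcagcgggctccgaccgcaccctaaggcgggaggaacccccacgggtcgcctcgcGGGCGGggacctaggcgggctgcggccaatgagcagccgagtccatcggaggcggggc
Hprt: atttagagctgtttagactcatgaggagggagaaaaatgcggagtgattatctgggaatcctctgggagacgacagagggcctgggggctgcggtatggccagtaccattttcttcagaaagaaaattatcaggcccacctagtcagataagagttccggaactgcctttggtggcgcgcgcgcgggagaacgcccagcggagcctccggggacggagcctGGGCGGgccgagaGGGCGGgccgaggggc
The E-box of Paics lies upstream of its start, in this stretch of 30 bases (chr5:76951087-76951116, plus strand).
Paics: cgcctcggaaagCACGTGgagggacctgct

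Over the whole set, transcripts for the first enzyme, PPAT, for the trifunctional GART and for the salvage enzyme HPRT read lower on every ADP array than on every control array, by 21.1% to 28.7% on the signal scale. Adsl was also below all controls, by a smaller margin. Impdh1 was the single member with a higher mean with ADP, and Pfas and Impdh2 had nearly the same mean in both groups. No member passed the test. In limma with Benjamini-Hochberg adjustment over 19589 features, 0 of 10 members and 0% of all features (0 of 19589) had an adjusted p under 0.05, and the smallest adjusted p of any member was 0.278 for Gart. At an unadjusted p under 0.05, 3 members (Ppat, Gart and Hprt) were lower, against 6.19% of all features, and 0 were higher, against 6.54% (12.7% of features in either direction). Groups did not overlap for 4 members lower with ADP, against 9.74% of all features, and for 0 higher, against 9.66%.

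**Figure D1:**
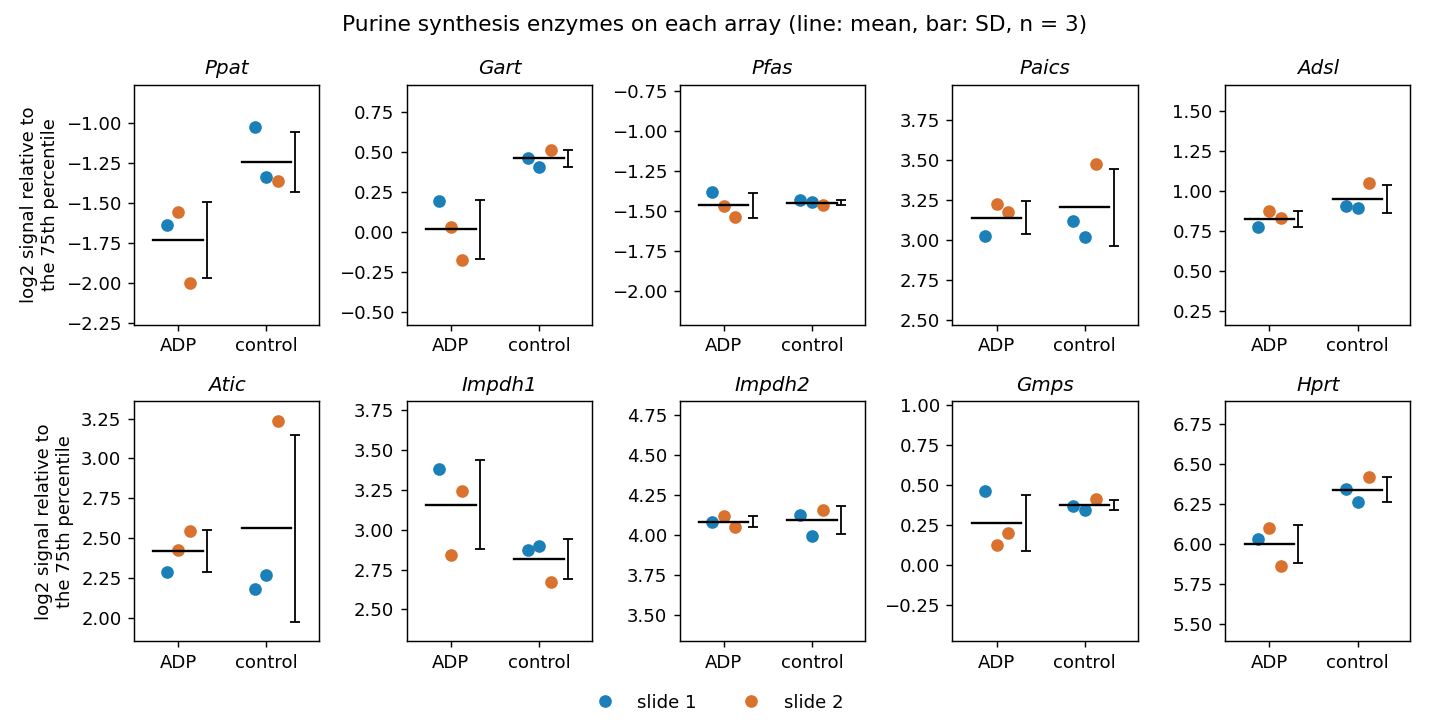
Log2 signal relative to the array's 75th percentile (y axis, each panel with its own centre and the same height) of the 10 enzymes on the 3 ADP and 3 control arrays, coloured by slide. Lines are means and bars are SD, n = 3. The ADP points of Ppat, Gart, Adsl and Hprt lie below all control points of the same gene, and control 3 stands high for Atic.

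Ppat encodes amidophosphoribosyltransferase, which makes phosphoribosylamine from PRPP and glutamine. Its level was -1.63, -1.55 and -1.997 on ADP arrays 1 to 3, against -1.02, -1.34 and -1.36 on control arrays 1 to 3 (log2 signal relative to the array's 75th percentile, as for every level below). The groups did not overlap, ADP 3 was lowest and control 1 highest. The difference, ADP minus control, was -0.49 ± 0.16 (log2, SE, n = 3 each; 95% interval -0.88 to -0.093), a signal 28.7% lower, with an unadjusted limma p of 0.0227 and an adjusted p of 0.313. Within slides 1 and 2 it was -0.45 and -0.41. A second Ppat probe (mm9, chr5:77342626-77342685) read -1.78, -1.66 and -1.86 with ADP, against -1.53, -1.41 and -1.51 in controls. Its groups did not overlap either, with a difference of -0.28 (adjusted p = 0.359 with every probe tested on its own).

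Gart encodes one protein with the activities of glycinamide ribonucleotide synthetase, glycinamide ribonucleotide formyltransferase and aminoimidazole ribonucleotide synthetase. The printed Gart probe read 0.19, 0.028 and -0.18 on ADP arrays 1 to 3, against 0.46, 0.41 and 0.51 on control arrays 1 to 3. Controls lay within a narrow band, and the ADP arrays spread more widely below it. The difference was -0.45 ± 0.13 (95% interval -0.75 to -0.14), a signal 26.6% lower, with an unadjusted limma p of 0.0105 and an adjusted p of 0.278. It was -0.24 within slide 1 and -0.59 within slide 2, and the change between slides was not tested.

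Pfas, which encodes the formylglycinamidine synthetase that follows the first formyl transfer, read -1.38, -1.47 and -1.54 with ADP, against -1.44, -1.45 and -1.47 in controls. The controls lay inside the range of the ADP arrays. The difference was -0.015 ± 0.097, with a 95% interval of -0.25 to 0.22 (adjusted p = 0.964). A difference of the size seen for Gart or Ppat thus lay outside the interval for Pfas.

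Paics encodes the bifunctional enzyme that carboxylates aminoimidazole ribonucleotide and joins aspartate to it. Its levels of 3.02, 3.22 and 3.17 with ADP lay inside the range of the controls, which read 3.12, 3.02 and 3.47. The difference was -0.064 ± 0.15, with a 95% interval of -0.42 to 0.29 (adjusted p = 0.888). Within slides 1 and 2 it was -0.046 and -0.28. In the RefSeq annotation Paics (first base at 76951302, plus strand) and Ppat (first base at 76951578, minus strand) are neighbours on chromosome 5 in GRCm38.p6 whose annotated starts lie 276 bases apart, with overlapping 5′ ends. The 2 genes had the differences -0.49 (Ppat) and -0.064 (Paics), and the gap between them was not tested.

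Adsl encodes adenylosuccinate lyase, which acts once in the chain to IMP and again between IMP and AMP. It read 0.78, 0.88 and 0.83 with ADP, against 0.91, 0.90 and 1.05 in controls. All ADP arrays were below all controls, although ADP 2 and control 2 were close. The difference of -0.12 ± 0.10 (95% interval -0.37 to 0.12) did not pass, with an adjusted p of 0.695. It was -0.12 within slide 1 and -0.20 within slide 2.

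Atic encodes the bifunctional enzyme that adds the last formyl group and closes the ring to IMP. It read 2.29, 2.43 and 2.55 on the ADP arrays, against 2.18, 2.27 and 3.23 on the controls. Control 3 stood above all others, and the other controls lay below every ADP array. The difference was -0.14 ± 0.29 over all arrays (adjusted p = 0.872), 0.062 within slide 1 and -0.75 within slide 2, which holds control 3. Without control 3 it was 0.19, so the sign of the Atic difference rested on that array.

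IMP dehydrogenase turns IMP into xanthosine monophosphate and controls the flow to GMP, and its 2 genes read differently. Impdh1 read 3.38, 2.84 and 3.24 with ADP, against 2.88, 2.90 and 2.67 in controls. ADP 1 and 3 lay above all controls and ADP 2 lay between them. The difference was 0.34 ± 0.17 (95% interval -0.056 to 0.74), a 1.27-fold higher signal that did not pass, with an unadjusted limma p of 0.0810 and an adjusted p of 0.469. Within each slide the ADP mean was higher, by 0.49 on slide 1 and 0.37 on slide 2. Leaving out 1 array gave differences between 0.23, without ADP 1, and 0.50, without ADP 2.

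Impdh2 read 4.08, 4.12 and 4.05 with ADP, against 4.12, 3.99 and 4.16 in controls. The ADP values lay within the control range, and the difference was -0.0086 ± 0.10 (95% interval -0.25 to 0.23, adjusted p = 0.979). A second Impdh2 probe, which shares 54 of its bases with the first and so is no separate measurement, gave -0.046. The difference between the Impdh1 and Impdh2 responses was not tested.

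Gmps, the glutamine-using enzyme that completes GMP, read 0.46, 0.12 and 0.20 with ADP, against 0.37, 0.35 and 0.41 in controls. The ADP arrays spread to both sides of the controls. The difference was -0.11 ± 0.12 (95% interval -0.41 to 0.18, adjusted p = 0.760), and it was 0.10 within slide 1 and -0.25 within slide 2. Leaving out 1 array gave -0.21, without ADP 1, to -0.046, without ADP 2. The other 2 Gmps probes differed by 0.054 and -0.088.

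Hprt, whose enzyme returns hypoxanthine and guanine to IMP and GMP, was measured by 10 spots of 1 probe on each array, with an SD between spots of 0.013 to 0.041 on the log2 scale. It read 6.03, 6.10 and 5.87 with ADP, against 6.34, 6.26 and 6.42 in controls. The groups did not overlap, and ADP 2 and control 2 were the nearest arrays. The difference was -0.34 ± 0.11 (95% interval -0.61 to -0.076), a signal 21.1% lower, with an unadjusted limma p of 0.0195 and an adjusted p of 0.305. Within slides 1 and 2 it was -0.27 and -0.43.

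**Figure D2:**
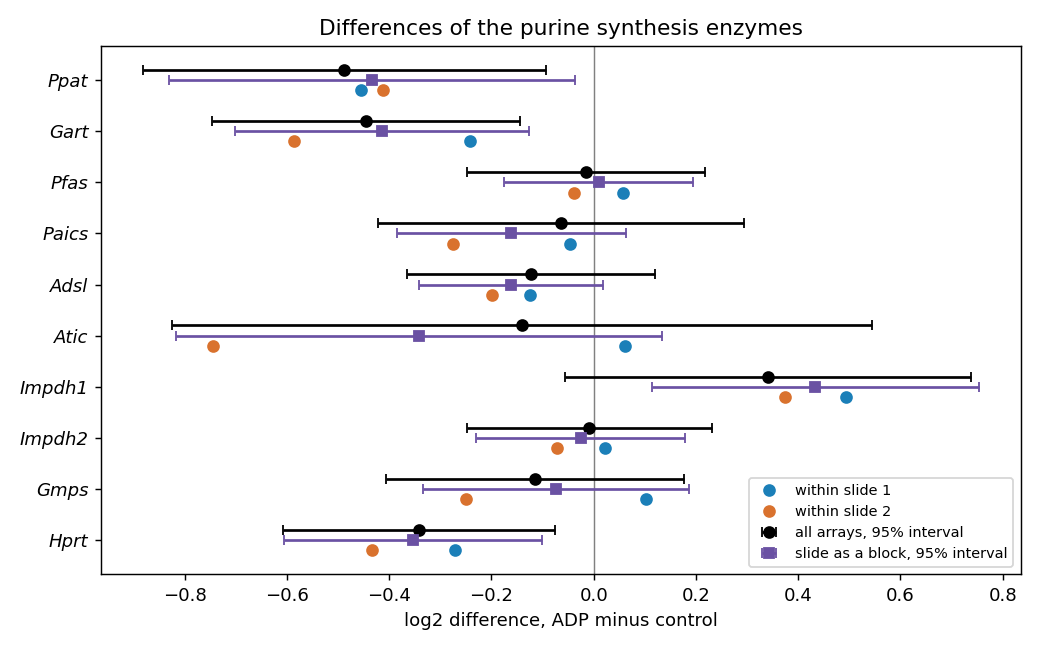
Log2 difference, ADP minus control, of each enzyme (x axis) over all arrays (black) and with the slide as a block (purple), each with its 95% interval, and within slide 1 and slide 2 (points without an interval). The intervals of Ppat, Gart and Hprt lie below 0 in both fits, and that of Impdh1 lies above 0 with the slide as a block.

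The slide moved some of these values. With the slide as a block, the differences were -0.43 for Ppat, -0.41 for Gart, -0.35 for Hprt and 0.43 for Impdh1, with adjusted limma p-values of 0.176, 0.110, 0.116 and 0.122. No member and 0% of features passed in that fit. At an unadjusted p under 0.05 it held 3 members lower, against 13.6% of all features, and 1 higher (Impdh1), against 10.8%. When the slide block was fitted together with intensity-trended, robust variances, Hprt passed as lower (adjusted p = 0.0330) and Impdh1 as higher (adjusted p = 0.0464), against 5.39% of features called lower and 4.52% called higher. Gart missed the threshold there at 0.0577 and Ppat at 0.133. Those 2 calls are the only ones that any setting run made among the members.

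Of the 10 members, 9 had a difference below 0, against 49.2% of all features. Normexp background correction left 8 below 0, and so did the slide block. The value table without scaling between arrays, where the median of all features is itself 0.082, left 6. With 1 array left out and no slide block, 6 were below 0 without control 3, 7 without ADP 3, 8 without control 1 and 9 otherwise. With the slide block as well, 5 were below 0 without control 3, 9 without ADP 1 and 8 otherwise. The members' median difference was -0.12, against 0.0044 over all features. It was -0.013 within slide 1 and -0.26 within slide 2, against 0.0096 and -0.030 over all features. The members with a difference below 0 on both slides numbered 5 (Ppat, Gart, Paics, Adsl and Hprt), against 32.4% of all features, and 1 (Impdh1) was above 0 on both, against 29.6%. The set was thus farther below all features on slide 2, where a single control array, control 3, stands against ADP 2 and 3. Without control 3 the members' median was -0.048.

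Across 25 ways of processing and leaving out arrays, the difference stayed below 0 for Ppat (-0.58 to -0.34), Gart (-0.59 to -0.24), Hprt (-0.43 to -0.26) and Adsl (-0.20 to -0.046), and above 0 for Impdh1 (0.23 to 0.53). The sign of Pfas, Paics, Atic, Impdh2 and Gmps changed in at least 1 of them. The 25 are not separate checks of the sign. Other filters, trended variances and the replicate block leave the members' differences as they were. With the slide block, leaving out control 3 or ADP 1 gives the differences within slide 1 or slide 2 again. Without scaling between arrays, Ppat, Gart and Hprt differed by -0.41, -0.37 and -0.26, with unadjusted limma p-values of 0.0527, 0.0567 and 0.178. In that linear signal Ppat read 185.7 on ADP 2 and 183.8 on control 2. Hprt read 37343.7 on ADP 2 and 36990.7 on control 1, and Adsl 1000.9 on ADP 2 and 853.8 on control 1. The groups of these genes thus overlapped there, and those of Gart did not. Without control 1, or without ADP 3, Gart alone of the members was lower at an unadjusted p under 0.05, in place of the 3 members over all arrays.

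**Figure D3:**
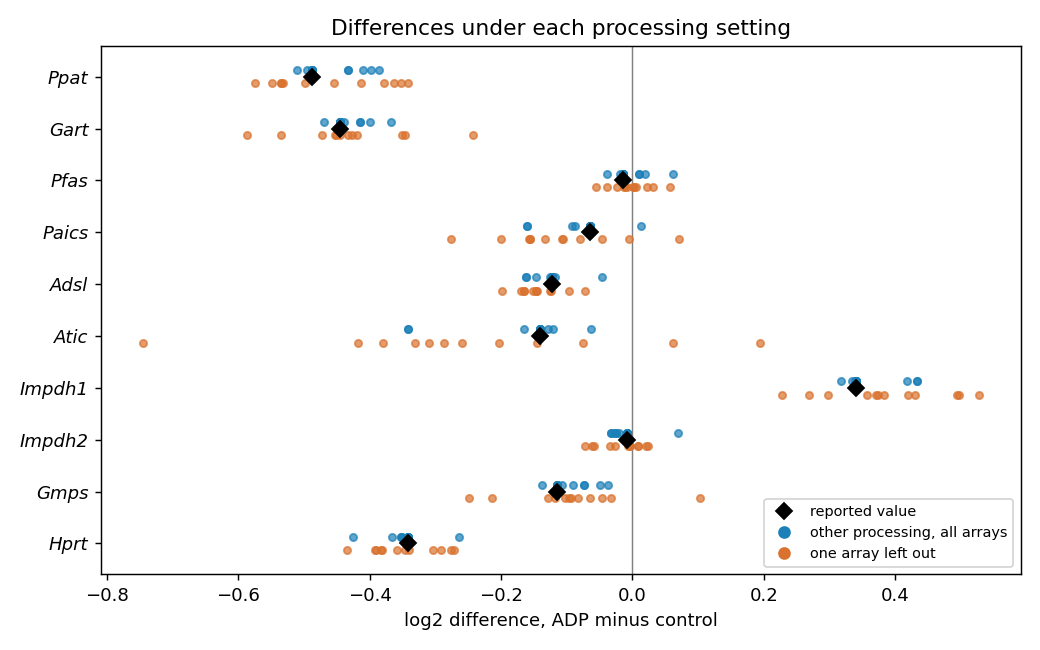
Log2 difference, ADP minus control (x axis), of each enzyme as reported (black), under other processing of all arrays (blue) and with 1 array left out, with or without the slide as a block (orange). All points of Ppat, Gart, Adsl and Hprt lie below 0 and all points of Impdh1 above 0, while those of Pfas, Paics, Atic, Impdh2 and Gmps lie on both sides.

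The promoter windows of the 9 matched members were searched on both strands for 4 motifs. CACGTG was present in 3 (Paics, Atic and Impdh2), against 8.1% of 27025 genes in the table. CCAAT, the NF-Y box, was present in 4 (Gart, Paics, Atic and Impdh2), against 41.1%. CCGGAA, the core read by ETS-family factors, was present in 4 (Ppat, Gart, Gmps and Hprt), against 16.7%, and in 2 (Ppat and Hprt) when only the bases before the start were searched, against 13.6%. GGGCGG was present in all 9, against 38.2%, and in Ppat it overlaps the ETS core by 2 bases. The 3 E-box members differed by -0.064 (Paics), -0.14 (Atic) and -0.0086 (Impdh2), and their groups overlapped. The 4 members with CCGGAA differed by -0.49 (Ppat), -0.45 (Gart), -0.11 (Gmps) and -0.34 (Hprt). The shares are over all genes with a window, expressed here or not, and were not matched for GC content. These matches describe letters in a window, and no binding was measured. Myc, the factor that reads the E-box, was 0.36, 0.18 and -0.38 with ADP, against 0.88, 0.65 and 0.029 in controls, a difference of -0.47 ± 0.28 that did not pass (adjusted p = 0.569) between groups that overlapped. Atf4, a factor that drives amino acid and one-carbon genes, read 7.37, 7.38 and 7.41 with ADP, against 7.33, 7.35 and 7.16 in controls (difference 0.10 ± 0.10, adjusted p = 0.744).

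The pathways that feed and drain purine synthesis were read in further lists, and with the members 99 listed genes were tested and 8 were not. In the fit over all arrays none of these genes had an adjusted p under 0.05. With the slide block and trended, robust variances, 11 of the 89 genes outside the members passed as lower and 7 as higher, against 5.39% and 4.52% of all features. Of the genes named below, Prps2, Mthfs, Nt5c3 and Dguok passed there as lower and Gldc, Ampd1, Ak4, Gda, Upp1, Uck2 and Uck1 as higher, at adjusted p-values of 0.0210 (Ak4) to 0.0478 (Prps2). Counts and p-values below are from the fit over all arrays, the counts at an unadjusted p under 0.05, to be read against the 6.19% lower and 6.54% higher of all features. Of 12 genes for PRPP supply and the pentose phosphate pathway, 1 was lower and 0 higher, with a median difference of 0.053. The lower one was Prps2, one of the synthetases that make PRPP, at -0.65, -0.73 and -0.92 with ADP against -0.40, -0.30 and -0.20 in controls. Its difference was -0.47 ± 0.12 (adjusted p = 0.261), and its groups did not overlap. Its paralogue Prps1 differed by 0.094 ± 0.10.

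Of 19 genes of folate one-carbon metabolism, which supplies the formyl groups used by GART and ATIC, 3 were lower and 1 higher, with a median of -0.083. The higher one was Gldc, the decarboxylase of the glycine cleavage system, at -0.71, -0.96 and -0.86 with ADP against -1.44, -1.32 and -1.45 in controls. Its difference was 0.56 ± 0.11 (adjusted p = 0.259), and the groups were well apart. Mthfs, which recovers 5-formyltetrahydrofolate, differed by -0.35 ± 0.13 (adjusted p = 0.328). Mthfd1, the cytosolic enzyme that makes the formyl donor, read 1.91, 1.88 and 1.83 with ADP against 2.22, 1.99 and 2.34 in controls, a difference of -0.31 ± 0.12 (adjusted p = 0.366) with no overlap.

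Past IMP, 14 genes of the AMP and GMP branch and of nucleotide interconversion held 1 lower and 2 higher, with a median of 0.026. Gmpr, the reductase that turns GMP back to IMP, read -1.91, -1.85 and -2.29 with ADP against -1.27, -1.61 and -1.33 in controls, a difference of -0.61 ± 0.16 (adjusted p = 0.269). Ampd1, an AMP deaminase, differed by 1.22 ± 0.35 (adjusted p = 0.281) and was well above background on all 3 ADP arrays and 2 of 3 control arrays. Ak4, a mitochondrial adenylate kinase, differed by 0.70 ± 0.27 (adjusted p = 0.361).

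Salvage and breakdown of purines, 14 genes beside Hprt, had 2 lower and 1 higher, with a median of -0.14, and 10 of them had a difference below 0. Nt5c3, a nucleotidase, and Dguok, the mitochondrial deoxyguanosine kinase, differed by -0.53 ± 0.13 and -0.44 ± 0.12 (adjusted p = 0.261 and 0.264). Nt5c3 is counted in this list although its enzyme acts mainly on pyrimidine nucleotides. Gda, the guanine deaminase, competes with HPRT for guanine and read 4.13, 3.94 and 4.28 with ADP against 3.67, 3.81 and 3.20 in controls. Its groups did not overlap, and the difference was 0.56 ± 0.19 (adjusted p = 0.312). The other salvage transferase, Aprt, differed by -0.11 ± 0.15.

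In the 14 pyrimidine genes, 2 were lower and 3 higher, with a median of -0.095. The higher ones act in uridine salvage and breakdown: Upp1, uridine phosphorylase, at 0.75 ± 0.18, and the uridine-cytidine kinases Uck2 and Uck1 at 0.84 ± 0.21 and 0.40 ± 0.11 (adjusted p = 0.261, 0.261 and 0.272). Tk2, mitochondrial thymidine kinase, differed by -0.35 ± 0.12 (adjusted p = 0.309). The other lower gene was Uckl1, also of the uridine-cytidine kinase family, at -0.22 ± 0.092 (adjusted p = 0.390), and its groups did not overlap. Cad, which starts pyrimidine synthesis as PPAT starts that of purines, differed by -0.083 ± 0.19. Of 5 deoxynucleotide genes, 1 was higher (Rrm2b, a ribonucleotide reductase subunit, 0.36 ± 0.14, adjusted p = 0.375), and of 11 regulators tested none was lower or higher.

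**Figure D4:**
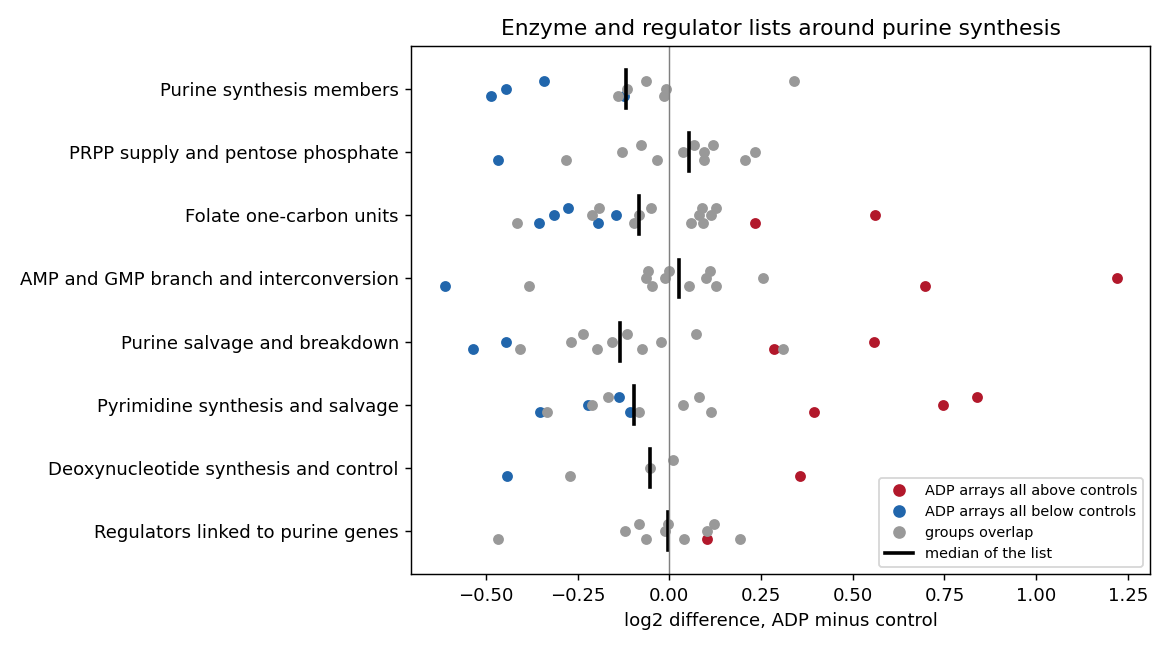
Log2 difference, ADP minus control (x axis), of the genes in 8 lists, 1 point per gene and a bar at each list's median. Red and blue points mark genes whose ADP arrays lie all above or all below the controls. Medians lie between -0.14 and 0.053, and the points of Ampd1, Uck2, Upp1 and Ak4 lie farthest to the right.

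The members' mean level, each gene first set to mean 0 and SD 1 over the 6 arrays, was -0.0023, -0.31 and -0.72 on ADP arrays 1 to 3, against 0.32, -0.14 and 0.85 on control arrays 1 to 3. Control 3 was highest and ADP 3 lowest, both on slide 2, and control 2 lay among the ADP arrays. Outside the set, the named genes whose levels followed this mean most closely over the 6 arrays were Cenpt, a centromere protein (Pearson r = 0.997), Nanos1, an RNA-binding protein (0.994), Tnfrsf4, a co-stimulatory receptor (0.990), Trap1, a mitochondrial chaperone (0.989), and Stk16, a kinase (0.988). They were picked as the closest of all named features and share slides, scaling and arrays with the members, so the values describe these arrays only. Cenpt read 0.33, 0.19 and 0.072 with ADP against 0.42, 0.28 and 0.60 in controls, a difference of -0.24 (adjusted p = 0.528).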

How the data were processed

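The scanner intensity of every spot, as deposited, comes from Agilent Feature Extraction 10.7.1.1 per the file headers and the submitters' processing notes, with background subtracted within each array and no scaling between arrays. The deposited value table held the same intensity, within 0.001 log2 for all 55681 probes on each array, with column medians of 20.7, 21.9 and 22.7 for ADP 1 to 3 and 18.7, 20.3 and 22.0 for controls 1 to 3. Its scale is linear and uncentred.

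Control spots and outlier-flagged spots were left out, spots of a probe were averaged, and log2 signals were taken relative to each array's 75th percentile. A probe was kept if all 3 arrays of a group showed it well above background (26587 probes), and the brightest kept probe stood for a gene, under the gene name in the files. Probe coordinates are those of the files (mm9). Groups were compared with limma 3.58.1 in R 4.3.3 (lmFit and eBayes, two-sided, Benjamini-Hochberg, threshold 0.05), after the fit was tested on simulated data. An exact permutation of 3 against 3 cannot go below p = 0.1. No label ties equal replicate numbers to a donor. The enzymes and all lists were chosen with earlier results of these data known. From each list the gene with the smallest unadjusted p is named, with up to 3 more whose groups did not overlap at an unadjusted p under 0.05. Myc and Atf4 are named whatever their values, and so are the 5 features best correlated with the members. Prps1, Aprt, Cad and Uckl1 were named after their values were seen. Alternatives were normexp (offset 50), quantile and median scaling, the unscaled table, other filters and probe rules, trended variances, slide and replicate blocks, and leaving out each array. Leaving out arrays together with the slide block was added after the data were seen. A summed level of B cell markers is not reported here.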

Additional observations from a re-analysis of the deposited data

How the results depend on the processing

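With 3 arrays per group, no setting without the slide block called a member or a feature. The slide block together with trended and robust variances called 2 members and 1942 features, and the slide block alone called 0 of either. Deviations of same-numbered arrays correlated at 0.42, -0.40 and 0.43. Such correlations followed the slide (0.42 to 0.47 for arrays of one slide, -0.60 to -0.27 across slides), so they do not settle whether the numbers pair the samples. With the replicate number as a block, 0 features and 0 members passed and the members' median was -0.12. In the unscaled value table this median was -0.041, against 0.082 over all features. Leaving out 1 array moved it between -0.15 and -0.048 (the higher value without control 3), with 0 calls of features and 0 of members throughout. With the slide block as well, added after the data were seen, it moved between -0.26, without ADP 1, and -0.013, without control 3 (-0.18 without control 2). The sign of small differences changed. Pfas was 0.020 with normexp, 0.062 in the unscaled table, 0.0096 with the slide block, with or without trended variances, between -0.056 (without ADP 1) and 0.022 (without ADP 3) with 1 array left out, and with the slide block 0.0051, 0.00046 and 0.058 without controls 1, 2 and 3 and 0.0019 and 0.031 without ADP 2 and 3. Leaving out 1 array gave Impdh2 from -0.058 to 0.024, Paics from -0.16 to 0.071 and Atic from -0.33 to 0.19. Impdh2 was 0.069 in the unscaled table, 0.0084 without control 1, 0.024 without control 3, 0.0082 without ADP 3 and 0.021 with the slide block without control 3. Paics was 0.013 in the unscaled table and 0.071 without control 3. Atic was 0.19 without control 3, and 0.062 when the slide was also a block, where Gmps was 0.10. The ETS core was found in 2 members in place of 4 when only the bases before the start were searched, since fewer bases were searched. For the other changes the cause was not tested.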
